A study of Mus musculus with 8 samples.

Results

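The genes examined here encode the machinery that removes messenger RNA from the cytoplasm: the deadenylases that shorten the poly(A) tail, the decapping enzymes, the exosome and the proteins that bind AU-rich elements. The 40 genes were taken by symbol from the deposited table, which lists 22063 mouse genes, and all 40 were found and passed the filter on low counts. They comprise 11 subunits of CCR4-NOT, 3 genes of PAN2-PAN3 and PARN, 7 decapping genes, 5 genes of poly(A) binding and the TOB/BTG family, 10 exosome subunits and 4 AU-rich element binding proteins. RNA-seq was carried out on 8 libraries, 4 with the label control and 4 whose label adds tranilast, an anti-allergic drug. All were labelled as wild-type liver, and the series design places both groups on a high-fat and high-cholesterol (HFHC) diet. By these descriptions the controls differ from the tranilast group by the drug. The methods describe male C57BL/6J mice that received tranilast or its carboxymethylcellulose vehicle by gavage in the later part of the feeding. The labels give no dose, age or animal for a library, so the p-values below measure the spread between these libraries, which may be technical.

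Most messenger RNAs are degraded after their poly(A) tail has been shortened, at first by PAN2-PAN3 and then by CCR4-NOT, whose recruitment by RNA-binding proteins sets how fast a given transcript decays. A deadenylated transcript is either decapped by DCP2 and degraded from its 5′ end, or degraded from its 3′ end by the exosome. In macrophages and liver this machinery is best known for clearing the short-lived transcripts of cytokines and growth regulators, many of which carry AU-rich elements that ZFP36 proteins use to recruit CCR4-NOT and that HuR, the product of Elavl1, binds instead to stabilise them.

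The libraries held between 14585153 and 15618787 estimated counts in the control group and between 12053036 and 14679386 in the tranilast group, and the members had between 117 and 43232 counts in a library. Although labelled as liver, the libraries held almost no hepatocyte transcripts: the 9 hepatocyte markers summed to at most 0.000717% of the counts, and Cps1, Hnf4a and Serpina1a had 0 counts in all libraries. Markers of stellate cells, endothelial cells and cholangiocytes summed to at most 0.000116%, 7.47e-05% and 5.37e-05%. Whether the tissue, diet and gavage described apply to the sequenced material was not tested. The 10 macrophage markers summed to between 0.929% and 0.987% in the control group and between 0.91% and 0.967% in the tranilast group, with none at 0 in all libraries but Mertk at 1 count or less in each, whereas Clec4f, Timd4 and Vsig4, which mark resident Kupffer cells, had 0 counts throughout. Whether these small differences in marker share had a part in the results below was not tested, and in bulk RNA fewer cells of a type and less RNA per cell cannot be told apart.

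mRNA decay genes were mostly lower with tranilast. When 10770 genes were tested by the quasi-likelihood method of edgeR with Benjamini-Hochberg adjustment, 22 of the 40 fell and 2, Tob1 and Parn, rose, while 16 did not pass an adjusted p of 0.05. Over all tested genes 57.0% were called, against 24 of 40 here, so that the number of calls was near the background. The direction was not: 28.8% of all tested genes were called lower and 28.2% higher. The median log2 fold change was -0.15 for the 40 genes and 0.01 for all tested genes. The differences were small. The called members had a median absolute log2 fold change of 0.26, against 0.32 for all called genes, and 22 of the 24 lay under 0.5. In 25 of the members the values of the groups did not overlap, against 49.8% of all tested genes. These counts moved with the scaling of the libraries. TMM factors, used here, were 0.956 to 0.965 for control and 1.037 to 1.045 for tranilast. With library size alone, the median of all genes shifted to 0.12 and that of the members to -0.04, and 13 members were called lower and 6 higher, upper-quartile factors gave 17 lower and 4 higher, and the FPKM values gave 14 and 5. Of all genes called, 49.5% were higher with TMM, 62.6% with upper-quartile factors, 70.4% with FPKM and 70.9% with library size alone. The distance between both medians was -0.16 with TMM, upper-quartile factors and library size alone and between -0.14 and -0.13 with FPKM, as the plot of medians by processing shows. With no filter on low counts, where 15421 genes were tested, this distance was -0.19. A scaling factor shifts all genes of a library alike, so a change of factor could hardly move this distance. Its constancy across scaling factors is therefore no separate evidence for a fall of the members.

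**Figure D1:**
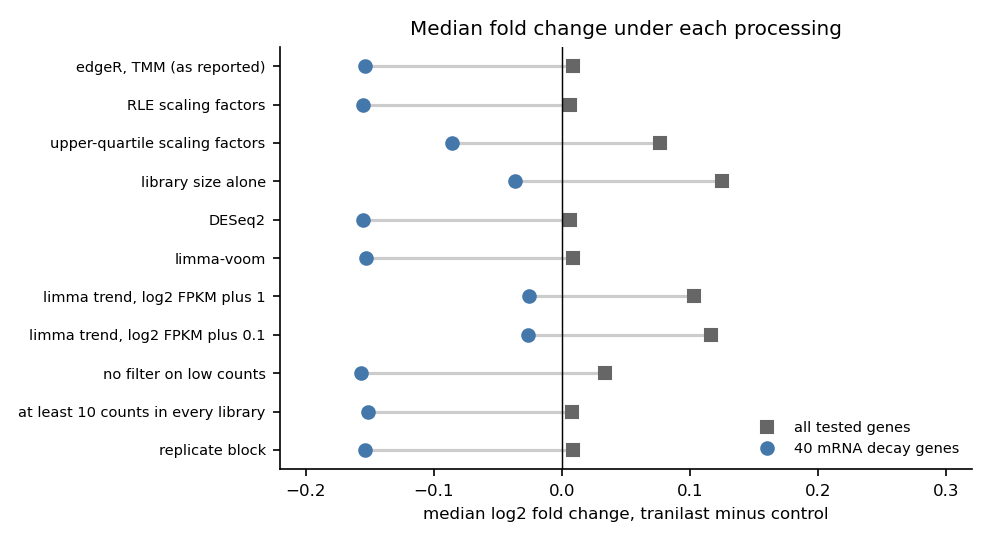
Median log2 fold change (tranilast minus control, horizontal axis) of the 40 mRNA decay genes (blue circles) and of all tested genes (grey squares) under each processing (rows). The median of all genes moved from 0.01 with TMM to 0.12 with library size alone, and that of the decay genes from -0.15 to -0.04. Between these 2 settings the gap stayed at -0.16, as it must when a scaling factor shifts all genes of a library alike. It was -0.13 and -0.14 with the FPKM values and -0.19 with no filter on low counts.

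**Figure D2:**
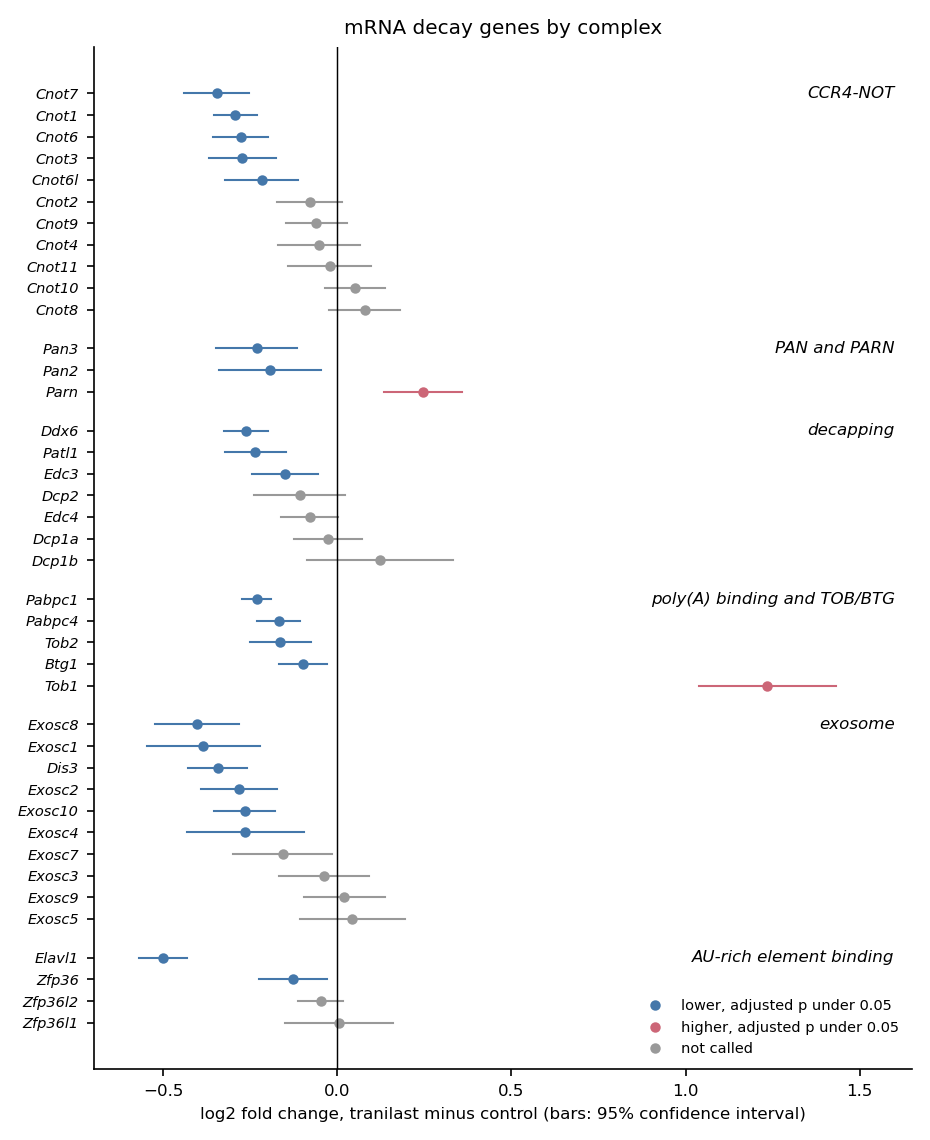
Log2 fold change of each of the 40 genes (points, horizontal axis) with its 95% confidence interval (bars), grouped by complex. Genes lower with tranilast at an adjusted p under 0.05 are blue, higher ones red and those not called grey. Tob1 at 1.23 and Elavl1 at -0.50 lie farthest from 0, and the other called genes lie between -0.40 and 0.25.

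CCR4-NOT is the main cytoplasmic deadenylase, in which the scaffold CNOT1 carries 2 kinds of nuclease, CNOT6 or CNOT6L and CNOT7 or CNOT8. Of its 11 subunits 5 fell (Cnot1, Cnot3, Cnot6, Cnot6l and Cnot7) and 0 rose, with a median log2 fold change of -0.08, and 3 of the 4 nuclease genes were among those that fell. The share called was 45.5%, all lower, against 57.0% of all tested genes called and 28.8% called lower. Cnot1, the scaffold (ENSMUSG00000036550, chr8:95719451-95807464 of GRCm38), had 465, 433, 442 and 457 CPM (counts scaled to the TMM-adjusted library size) in the control libraries and 365, 378, 365 and 359 in the tranilast libraries. The groups did not overlap, with all tranilast values below the control values. Its mean was 449 ± 14.3 CPM (SD, n = 4) with control and 367 ± 7.73 (SD, n = 4) with tranilast, a log2 fold change of -0.29 (SE, the standard error of the fit, 0.029, adjusted p = 1.03e-07). Further means below are also given with the SD of 4 libraries.

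Cnot7 (ENSMUSG00000031601, chr8:40492540-40515847), a nuclease of the CAF1 type, had 97.7, 96.1, 103 and 104 CPM in the control libraries and 77.0, 75.5, 83.1 and 80.1 in the tranilast libraries. It fell by 21.4%, with a log2 fold change of -0.35 (SE 0.044, adjusted p = 2.44e-06), the largest fall in the complex. Cnot6 (ENSMUSG00000020362, chr11:49671503-49712723), a nuclease of the CCR4 type, had 258, 255, 236 and 249 CPM with control and 205, 196, 218 and 205 with tranilast (log2 fold change -0.28, standard error 0.037, adjusted p = 4.97e-06). For both nucleases the groups were apart. Cnot3 (ENSMUSG00000035632, chr7:3645268-3661109), which joins the scaffold in the NOT module, had 89.3, 86.7, 93.0 and 94.6 CPM with control and 80.5, 74.2, 74.1 and 72.2 with tranilast (log2 fold change -0.27, standard error 0.045, adjusted p = 5.38e-05). Its groups did not overlap either (two-sided p = 0.0286 in an exact permutation test of each of these 4 genes, the smallest value possible with 4 libraries against 4). Cnot6l, the paralog of Cnot6, had a log2 fold change of -0.22 (adjusted p = 0.0012), and this call was lost with library size alone (-0.10, adjusted p = 0.0873) and with the FPKM values.

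The other subunits of CCR4-NOT did not pass the test. Cnot8, the paralog of Cnot7, had 60.6, 55.9, 57.4 and 63.0 CPM with control and 64.3, 60.7, 63.6 and 61.7 with tranilast, and the groups overlapped. Its log2 fold change was 0.08 (95% confidence interval -0.02 to 0.18, adjusted p = 0.176), and it was called higher with library size alone (0.20, adjusted p = 0.00226), with upper-quartile factors (0.15, adjusted p = 0.0155) and with the FPKM values (adjusted p = 0.00477 with 1 added). Cnot10, which with CNOT11 binds the other end of the scaffold, had a log2 fold change of 0.05 and was likewise called higher with library size alone (0.17, adjusted p = 0.00215), with upper-quartile factors (adjusted p = 0.0247) and with the FPKM values (adjusted p = 0.0239 with 1 added). Cnot2, Cnot4, Cnot9 and Cnot11 lay between -0.08 and -0.02, and these 4 changed sign with library size alone, to between 0.04 and 0.09. CNOT2 is the NOT module partner of CNOT3, CNOT4 is a ubiquitin ligase and CNOT9 docks the GW182 proteins of microRNA silencing.

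The other deadenylase genes among the members all passed the test, in opposite directions, where 57.0% of all tested genes were called. PAN2 is the nuclease and PAN3 the adaptor of the complex that trims long tails, and PARN is a nuclease that acts largely on non-coding and nuclear RNAs. Parn (ENSMUSG00000022685, chr16:13537960-13668170) had 45.0, 39.7, 42.9 and 42.6 CPM with control and 49.5, 47.9, 51.9 and 52.5 with tranilast, and every tranilast library lay above every control library. It rose from 42.5 ± 2.17 to 50.5 ± 2.12 CPM (log2 fold change 0.25, standard error 0.053, adjusted p = 6.92e-04) and stayed called under every alternative tried. Pan3 (ENSMUSG00000029647, chr5:147430161-147548502) had 65.4, 55.7, 57.4 and 59.4 CPM with control and 51.1, 53.1, 49.1 and 49.1 with tranilast (log2 fold change -0.23, standard error 0.055, adjusted p = 0.00149). Pan2 (ENSMUSG00000005682, chr10:128303335-128321358) had 29.0, 27.2, 28.1 and 27.4 CPM with control and 21.9, 25.8, 25.5 and 24.4 with tranilast (log2 fold change -0.19, standard error 0.069, adjusted p = 0.0237). Both genes were lower without overlap between the groups. The call of Pan2 was lost without control replicate 1 (adjusted p = 0.0605) or tranilast replicate 1 (adjusted p = 0.104, log2 fold change -0.14), and with library size alone (adjusted p = 0.357), upper-quartile factors (0.136) and the FPKM values (up to 0.437). The call of Pan3 was lost with library size alone (adjusted p = 0.0829).

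Poly(A)-binding proteins coat the tail and are contacted by TOB and BTG proteins, which link them to the CCR4-NOT nucleases. All 5 genes of this class passed the test, 4 lower and 1 higher, where 57.0% of all tested genes were called. Tob1 (ENSMUSG00000037573, chr11:94211454-94215495), an antiproliferative adaptor, rose most of the 40 genes. It had 9.96, 8.13, 9.96 and 8.93 CPM in the control libraries and 21.4, 20.9, 23.4 and 21.5 in the tranilast libraries, so that the lowest tranilast library lay over 2 times above the highest control library. Its mean rose 2.35-fold, from 9.24 ± 0.887 to 21.8 ± 1.11 CPM (log2 fold change 1.23, standard error 0.093, adjusted p = 2.85e-09), and its log2 fold change lay between 1.16 and 1.35 over all alternatives. Its paralog Tob2 (ENSMUSG00000048546, chr15:81848272-81858796) had 88.4, 85.7, 90.9 and 90.4 CPM with control and 75.1, 79.5, 82.0 and 80.9 with tranilast. It was lower without overlap (log2 fold change -0.16, standard error 0.042, adjusted p = 0.00292), but this fall was not called with library size alone (-0.05, adjusted p = 0.359) or upper-quartile factors (adjusted p = 0.0634) and turned to 0.01 with the FPKM values. Btg1, a related antiproliferative gene, was lower by a log2 fold change of -0.10 (adjusted p = 0.0171), turned to 0.02 with library size alone and to 0.0013 with log2 FPKM plus 1, and lost its call with upper-quartile factors (adjusted p = 0.432) and without control replicate 3 (adjusted p = 0.0503) or tranilast replicate 2 (adjusted p = 0.0709).

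Pabpc1, the major cytoplasmic poly(A)-binding protein (ENSMUSG00000022283, chr15:36595661-36609668), was the most abundant of the 40. It had 2781, 2799, 2890 and 2871 CPM with control and 2426, 2360, 2417 and 2461 with tranilast, without overlap. Its log2 fold change was -0.23 (SE 0.020, adjusted p = 1.69e-08), and it remained called lower under every alternative. Pabpc4 (ENSMUSG00000011257, chr4:123262351-123298925) had 293, 291, 299 and 306 CPM with control and 268, 258, 262 and 270 with tranilast (log2 fold change -0.17, standard error 0.029, adjusted p = 9.23e-05), a call that was lost with library size alone (-0.05, adjusted p = 0.142) and with the FPKM values (adjusted p up to 0.161). Pabpc1 messenger RNA is known to carry, in its 5′ untranslated region, a stretch of A that its own protein binds to limit translation. The most A-rich 30 bases of that region in the GENCODE M21 transcript, 22 of them A, start 105 bases from the transcript's start on the minus strand (chr15:36608840-36608869 of GRCm38). They are shown because the text refers to this element, with the runs of A in capitals:
Pabpc1 5′ untranslated region: gAAAAAAcccAAAAAAAAtttacAAAAAAA
The RNA-seq values measure the transcript level and not its translation.

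Decapping requires the enzyme DCP2 and activators that assemble around it. Of the 7 genes 3 fell, namely Ddx6, Patl1 and Edc3, and 0 rose. This share of 42.9%, all lower, stood against 57.0% of all tested genes called and 28.8% called lower. Ddx6 (ENSMUSG00000032097, chr9:44604892-44640731), an RNA helicase that represses translation and links CCR4-NOT to decapping, had 314, 319, 299 and 314 CPM with control and 266, 260, 252 and 259 with tranilast. It fell from 311 ± 8.79 to 259 ± 5.82 CPM (log2 fold change -0.26, standard error 0.030, adjusted p = 7.95e-07). Patl1 (ENSMUSG00000046139, chr19:11912399-11945091), which bridges DDX6, the LSM ring and DCP2, had 103, 97.7, 109 and 103 CPM with control and 88.9, 86.6, 90.1 and 85.0 with tranilast (log2 fold change -0.24, standard error 0.042, adjusted p = 1.06e-04). For both genes the groups were apart and the call held under every alternative tried. Edc3 (ENSMUSG00000038957, chr9:57708540-57752499), an enhancer of decapping, had 61.5, 63.7, 65.8 and 64.3 CPM with control and 56.0, 59.9, 57.3 and 57.0 with tranilast (log2 fold change -0.15, standard error 0.045, adjusted p = 0.00851). Its call was lost with library size alone (-0.03, adjusted p = 0.546), with upper-quartile factors and with the FPKM values.

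The gene of the enzyme itself, Dcp2, and those named Dcp1a, Dcp1b and Edc4 were not called with TMM. Dcp2 had a log2 fold change of -0.11 (95% confidence interval -0.24 to 0.02, adjusted p = 0.146). Its control replicate 4, at 75.2 CPM, lay below the other control libraries, which lay between 88.9 and 95.9, and without that library Dcp2 was called lower (-0.18, adjusted p = 0.00509). Dcp1a and Dcp1b, which encode alternative activators of DCP2, had log2 fold changes of -0.03 and 0.12, and Dcp1a changed sign with library size alone (0.09). Dcp1b was the less abundant, with 11.1 ± 0.838 CPM with control, and its interval of -0.09 to 0.33 was the widest of the members that were not called. It was called higher with library size alone (0.24, adjusted p = 0.0472) and with the FPKM values (adjusted p = 0.0329 with 0.1 added). Edc4, the scaffold of the decapping complex, had a log2 fold change of -0.08 and groups that did not overlap, but an adjusted p of 0.088, and changed sign with library size alone (0.04).

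The exosome is a ring of 6 subunits with a cap of 3, to which the nucleases DIS3 and EXOSC10 attach. Of the 10 exosome genes 6 fell and 0 rose, with a median log2 fold change of -0.27, the lowest of the 6 classes. The share called, 60%, was near the 57.0% of all tested genes, of which 28.8% were called lower. Both nucleases were among those that fell, and of the 8 ring and cap genes 4 did. Dis3 (ENSMUSG00000033166, chr14:99075206-99099770), the principal nuclease, had 114, 112, 112 and 113 CPM in the control libraries and 84.8, 88.6, 94.6 and 86.5 in the tranilast libraries. Its mean fell from 112 ± 0.888 to 88.6 ± 4.27 CPM (log2 fold change -0.34, standard error 0.040, adjusted p = 9.69e-07). Exosc10 (ENSMUSG00000017264, chr4:148558429-148582401), the nuclear nuclease, had 141, 152, 146 and 155 CPM with control and 129, 126, 123 and 116 with tranilast (log2 fold change -0.27, standard error 0.042, adjusted p = 2.79e-05). In both genes the tranilast values all lay below the control values.

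Among the ring genes, Exosc8 (ENSMUSG00000027752, chr3:54728678-54735393) had 52.8, 51.4, 50.3 and 58.3 CPM with control and 38.9, 42.4, 38.2 and 41.3 with tranilast. Its log2 fold change of -0.40 (SE 0.057, adjusted p = 9.43e-06) was the lowest in the exosome. Exosc2 (ENSMUSG00000039356, chr2:31670715-31681349), of the cap, had 57.0, 56.5, 56.1 and 55.5 CPM with control and 47.1, 45.3, 50.1 and 42.8 with tranilast (log2 fold change -0.28, standard error 0.052, adjusted p = 1.5e-04). For both the groups did not overlap. Exosc1, also of the cap, fell with a log2 fold change of -0.38 (adjusted p = 3.33e-04) and Exosc4, of the ring, with -0.26 (adjusted p = 0.00894), a call lost with library size alone (-0.15, adjusted p = 0.119) and with the FPKM values (adjusted p up to 0.109). The remaining subunits were not called. Exosc7 had groups that did not overlap and a log2 fold change of -0.16 (adjusted p = 0.0537), and it was called without control replicate 1 (adjusted p = 0.0392). Exosc3, Exosc5 and Exosc9 had log2 fold changes of -0.04, 0.04 and 0.02, and each of them changed sign in at least 1 alternative, and Exosc9 was called higher with library size alone (0.14, adjusted p = 0.0437).

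**Figure D3:**
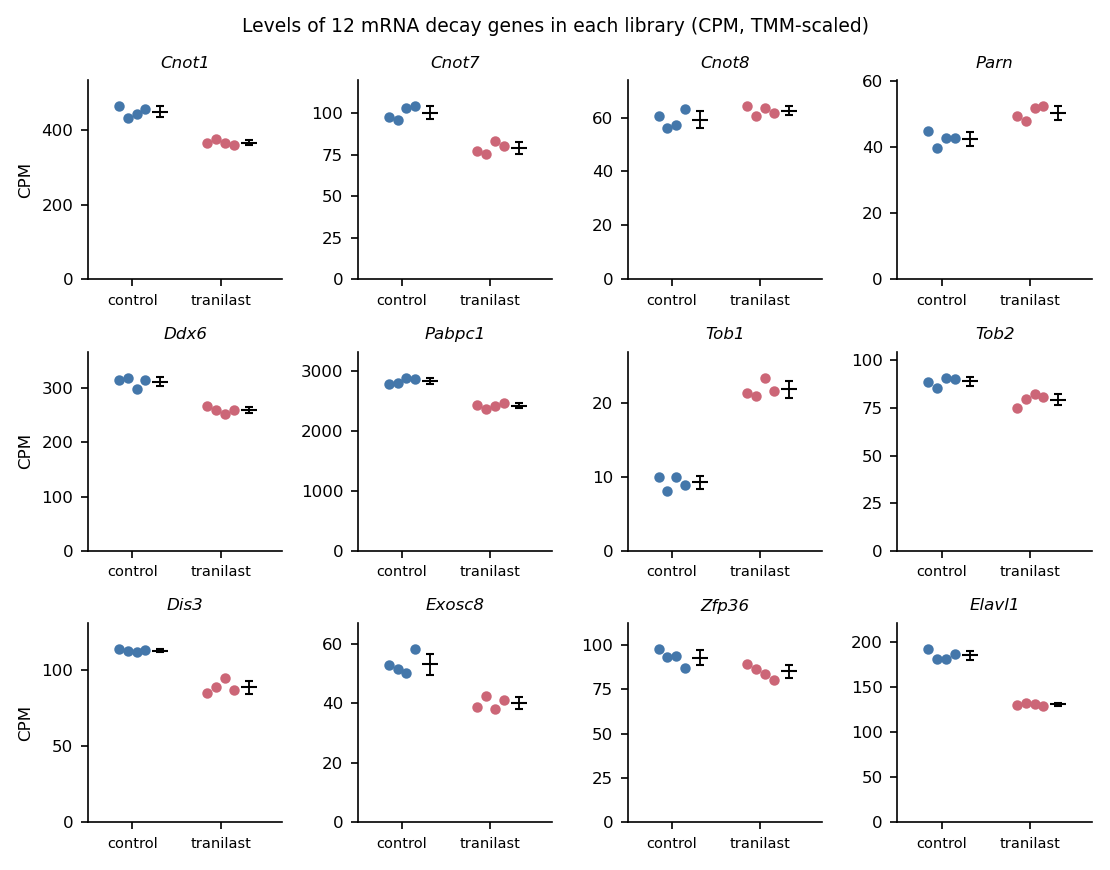
Level in each library (CPM, linear axes from 0) of 12 of the genes in the control (blue) and tranilast (red) libraries, with the mean and SD of 4 libraries beside the points (black). Elavl1, Cnot1, Dis3 and Pabpc1 are lower in every tranilast library, Tob1 and Parn are higher in every tranilast library, and the points of Cnot8 and Zfp36 overlap between the groups.

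The 4 AU-rich element binding proteins act against each other on shared targets: ZFP36 (tristetraprolin), ZFP36L1 and ZFP36L2 recruit CCR4-NOT, and HuR protects the transcripts it binds. Elavl1 (ENSMUSG00000040028, chr8:4285382-4325413), which encodes HuR, had 192, 181, 181 and 186 CPM in the control libraries and 130, 132, 132 and 129 in the tranilast libraries. The highest tranilast library lay far below the lowest control library. It fell by 29.3%, from 185 ± 5.23 to 131 ± 1.57 CPM (log2 fold change -0.50, standard error 0.033, adjusted p = 5.18e-10), the largest fall of the 40 genes, and its log2 fold change lay between -0.51 and -0.37 over all alternatives. Zfp36 (ENSMUSG00000044786, chr7:28376784-28380253) had 97.8, 93.2, 93.9 and 87.1 CPM with control and 89.6, 86.6, 83.9 and 80.5 with tranilast. The groups overlapped (exact permutation test, two-sided p = 0.0571), although the adjusted p was 0.0244 for a log2 fold change of -0.13 (SE 0.046). This call was lost without control replicate 1 (adjusted p = 0.0802), control replicate 3 (0.0535), tranilast replicate 3 (0.0623) or tranilast replicate 4 (0.109), with library size alone (-0.01, adjusted p = 0.851), with upper-quartile factors (adjusted p = 0.267) and with the FPKM values (adjusted p = 0.847).

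Neither of the other ZFP36 genes passed the test. Zfp36l1 (ENSMUSG00000021127, chr12:80107754-80113013) had 34.3, 29.5, 36.2 and 28.8 CPM with control and 32.9, 30.6, 32.5 and 33.2 with tranilast, with a log2 fold change of 0.01 (SE 0.074, 95% confidence interval -0.15 to 0.16, adjusted p = 0.959). Zfp36l2 (ENSMUSG00000045817, chr17:84183931-84187947) had 186, 185, 181 and 187 CPM with control and 178, 180, 175 and 181 with tranilast, with a log2 fold change of -0.05 (SE 0.031, 95% confidence interval -0.11 to 0.02, adjusted p = 0.195), which turned to 0.07 with library size alone. For both genes the groups overlapped. Zfp36l2 was the most abundant of the ZFP36 genes per length, with 50.2 ± 0.866 FPKM (reads scaled for transcript length and depth) in the control group, against 32.4 ± 1.6 for Zfp36 and 11.2 ± 1.41 for Zfp36l1.

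The transcripts of these 4 proteins carry the kind of element that the proteins bind. The nonamer TTATTTATT, a core AU-rich element written as DNA, was searched on the sense strand of the longest annotated 3′ untranslated region of each gene in GENCODE M21 (GRCm38), with overlapping matches counted. It was found in 8.28% of the 10643 tested genes that have such a region. Of the 39 members with one, 6 held it: Elavl1 with 8 matches, Zfp36, Zfp36l1 and Zfp36l2 with 1 each, and Cnot6l and Edc3 with 1 each. The 3′ untranslated region of Elavl1 is 4218 bases long and that of Zfp36 774 bases, and longer regions hold the letters more often by length alone. The match windows of the 4 binding proteins, and of Tnf as the classic target of ZFP36, are shown 5′ to 3′ with the nonamer in capitals, so that their flanks can be compared. All 5 genes lie on the minus strand, and the windows are the first match in each region: chr8:4285787-4285816 for Elavl1, chr7:28376950-28376979 for Zfp36, chr12:80108166-80108195 for Zfp36l1, chr17:84184913-84184942 for Zfp36l2 and chr17:35199688-35199717 for Tnf.
Elavl1: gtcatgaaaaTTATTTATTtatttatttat
Zfp36: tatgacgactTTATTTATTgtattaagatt
Zfp36l1: aactgttggaTTATTTATTttagaaattct
Zfp36l2: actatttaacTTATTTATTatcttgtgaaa
Tnf: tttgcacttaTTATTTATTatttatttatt
In Elavl1 and Tnf the nonamer runs on into further repeats of the same letters within the window, whereas in the 3 ZFP36 genes it does not. The Zfp36l2 window also holds the letters ATTTA upstream of the nonamer. A match is a description of the sequence and not a site of binding.

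Transcripts with textbook AU-rich elements moved in both directions. Of the 27 in the list 18 passed the filter, and 10 of them fell, 5 rose and 3 were not called. The share called lower was 55.6%, against 28.8% of all tested genes, and the share called higher 27.8%, against 28.2%. The median log2 fold change was -0.17 against 0.01 for all tested genes. Ccnd1, which encodes cyclin D1, fell from 793 ± 29.9 to 535 ± 23.9 CPM (log2 fold change -0.57, adjusted p = 6.79e-11). Ier3, an early response gene, had a log2 fold change of -0.72 (adjusted p = 5.41e-10) and Plau, the urokinase gene, of -0.73 (adjusted p = 1.2e-09). In these 3 genes the groups did not overlap. Among the cytokine and inflammation genes of the list, named here after their values were seen, Tnf fell (log2 fold change -0.19, adjusted p = 6.86e-04; up to 0.149 over its alternatives), as did Ptgs2 (-0.58, adjusted p = 2.93e-06) and the weakly expressed Ccl2 (-1.44, adjusted p = 0.0123, up to 0.0842 over its alternatives, with overlapping groups), while Ccl3 (0.79, adjusted p = 5.32e-08) and Cxcl2 (0.66, adjusted p = 2.97e-05) rose. The 8 tested transcripts of the list with the nonamer split into 4 lower, 3 higher and 1 not called, and the 10 without it into 6 lower, 2 higher and the rest not called. Over all tested genes, 26.2% of the 881 with the nonamer were called lower and 33.0% higher, against 29.1% and 27.9% of the 9762 without it, and the median log2 fold changes were 0.04 and 0.01. These steady-state levels do not separate synthesis from decay.

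Relations between related genes were also compared within each library, where a ratio of counts does not depend on the scaling factor. In 3 of the 7 pairs the ratios with tranilast were clear of those with control. For single genes the groups did not overlap in 49.8% of all tested genes. No test was made on these ratios, and no share was obtained for ratios of other genes, so whether 3 of 7 is unusual is not known. Counts of Tob1 per count of Tob2 lay from 0.095 to 0.113 with control and from 0.262 to 0.285 with tranilast, a difference of 1.40 on the log2 scale. The ratio of Cnot7 to Cnot8, the alternative CAF1 nucleases, was between 1.61 and 1.80 with control and between 1.2 and 1.31 with tranilast, a log2 difference of -0.43. The ratio of Pabpc1 to Pabpc4 fell from a mean log2 ratio of 3.26 ± 0.020 to 3.19 ± 0.013. The 4 other pairs overlapped, with log2 differences of -0.06 for Cnot6 to Cnot6l, -0.15 for Dcp1a to Dcp1b, 0.06 for Zfp36l1 to Zfp36l2 and 0.04 for Pan2 to Pan3. Within the deadenylase, the ratio of the CCR4-type nucleases overlapped between the groups and that of the CAF1-type nucleases did not.

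**Figure D4:**
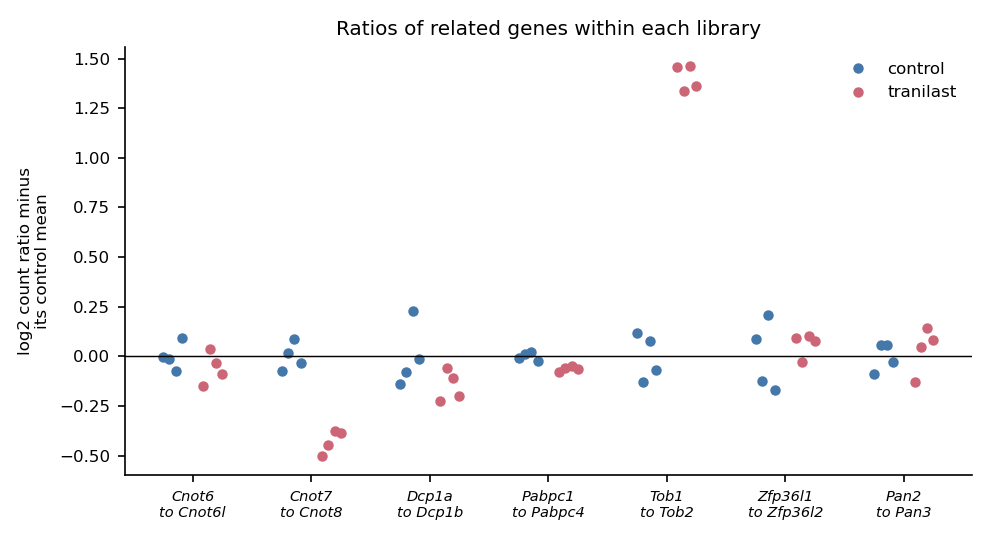
Log2 ratio of the counts of each pair of related genes within a library, minus the mean ratio of the control libraries (vertical axis), for the control (blue) and tranilast (red) libraries. The tranilast libraries stand apart from the control libraries for Cnot7 to Cnot8 and Tob1 to Tob2, are narrowly apart for Pabpc1 to Pabpc4, and overlap them for the other pairs.

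Per length, the members spanned a wide range in the control group. Pabpc1 had 973 ± 16.4 FPKM and Pabpc4 94.1 ± 2.35, followed by Elavl1 with 68.2 ± 2.37, Cnot1 with 60.1 ± 1.35 and Cnot6 with 58.2 ± 1.58, of which the last pair lay within their spread. Exosc10 had 51.2 ± 2.17 FPKM and Ddx6 49.5 ± 1.44. Tob1 was the lowest at 3.88 ± 0.380 FPKM, below Dcp1b with 5.25 ± 0.544 and Pan2 with 6.09 ± 0.194. With tranilast Tob1 reached 9.91 ± 0.495 FPKM, above both. The PAN2 nuclease was thus lower per length than its adaptor Pan3, at 15.1 ± 0.867 FPKM, and the decapping activator Dcp1a, at 13.3 ± 1.38 FPKM, was above Dcp1b.

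The length that the authors' FPKM values imply for a gene, obtained from its count, its FPKM and the library total, varied by less than 1% across libraries for 14 members and by more than 10% for 8. Dcp2 varied most. Its implied length was 3221, 2909, 5318 and 5156 bases in the control libraries and 4952, 3553, 3484 and 3338 in the tranilast libraries, so that long and short values occurred in both groups. The FPKM of Dcp2 was 22.4 ± 8.67 with control, a spread much wider than that of its CPM (88.4 ± 9.25). For Cnot6l the mean implied length was 4175 bases with control and 4526 with tranilast, and for Pan3 3781 and 4097, with overlapping groups in both genes. Edc4 was the only member whose implied lengths did not overlap, at a mean of 3523 bases with control and 3738 with tranilast. Whether these differences reflect other isoforms was not tested. Cnot3, Cnot7, Edc3, Exosc2, Exosc4 and Exosc9 had estimated counts that were not whole numbers, and 18 members, among them Cnot1, Cnot3, Cnot7, Edc3, Tob2, Exosc2, Exosc4, Exosc8, Exosc9, Dis3, Zfp36 and Elavl1, share exon sequence with a gene on the opposite strand in the annotation. Whether the counting used the strand is not given in the sources used here, so reads of such genes and their partners cannot be told apart. In 2 members, Edc4 and Cnot3, exons overlap a gene on the same strand, Nrn1l and Mir3572, which strand would not separate. Whether this bears on the implied lengths of Edc4 was not tested.

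Beyond the 40 genes, 85 further genes of mRNA decay were listed by role, and 78 were tested. Of these 28 fell (35.9%, against 28.8% of all tested genes) and 21 rose (26.9%, against 28.2%), with a median log2 fold change of -0.08, so that the shares lay near the background. Of 11 tested partners of deadenylation and further deadenylase-family enzymes, 8 were higher and 1 lower (81.8% called, against 57.0% of all tested genes). The 8 include the enzymes Noct, Angel1, Angel2 and Toe1, which are described at the end. Btg2, an antiproliferative partner of the CAF1 nucleases, rose from 25.2 ± 1.5 to 53.8 ± 3.45 CPM (log2 fold change 1.09, adjusted p = 5.27e-11). Nanos1, which recruits CCR4-NOT through CNOT1, rose from 9.62 ± 0.697 to 22.8 ± 0.562 CPM (log2 fold change 1.24, adjusted p = 8.65e-10). Paip2, an inhibitor of PABPC1, had a log2 fold change of 0.46 (adjusted p = 1.31e-07). Btg3, of the same family as Btg2, was not called (-0.11, adjusted p = 0.685), and of the members of that family Tob1 rose while Tob2 and Btg1 fell.

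The ring of LSM1 to LSM7, which binds the shortened tail and activates decapping, was mostly lower. Of its 7 genes 6 fell, Lsm2 to Lsm7, with log2 fold changes between -0.48 and -0.32, and Lsm1, which sets the cytoplasmic ring apart from the nuclear one, was not called (-0.12, adjusted p = 0.11). Among all 17 tested genes of this class, which includes partners of decapping and the 5′ exonucleases, 10 fell and 2 rose. The shares called were 85.7% of the ring and 70.6% of the class, against 57.0% of all tested genes. Pnrc1, a nuclear coactivator, rose from 32.3 ± 2.74 to 59.0 ± 3.0 CPM (log2 fold change 0.87, adjusted p = 1.15e-09), Lsm2 fell from 58.0 ± 2.84 to 41.7 ± 1.84 CPM (log2 fold change -0.48, adjusted p = 4.08e-07), and Eif4enif1, which links DDX6 to the cap-binding protein, had a log2 fold change of -0.29 (adjusted p = 4.96e-06).

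Of 16 tested exosome cofactors 6 fell and 2 rose (50% called, against 57.0% of all tested genes). Zfc3h1, which connects the nuclear exosome to polyadenylated RNA, had a log2 fold change of 0.66 (adjusted p = 4.56e-09), Tent4a, a terminal nucleotidyltransferase, of -0.83 (adjusted p = 7.24e-09) and Zcchc8, of the nuclear exosome targeting complex, of -0.43 (adjusted p = 2.63e-07, up to 0.117 over its alternatives). Exosc6, the ring subunit that is not among the members, had 0 counts in all 8 libraries, which leaves room for up to 3 counts, or 0.192 to 0.249 CPM, by counting error alone. The 8 ring and cap genes among the members had control means of 22.2 to 56.3 CPM. Whether the 0 of Exosc6 reflects its level or the assignment of its reads was not tested. Nonsense-mediated decay had 3 genes lower and 3 higher of 12, also 50% called. Dhx34 (-0.81, adjusted p = 9.67e-10) and the helicase Upf1 (-0.33, adjusted p = 9.67e-08) fell, and Nbas rose (0.41, adjusted p = 4.80e-06). In microRNA silencing 5 of 9 genes rose and 3 fell (88.9% called). Ago2, the slicing Argonaute, was lower (-0.29, adjusted p = 7.43e-07) and Ago3 (0.47, adjusted p = 1.90e-06) and Dgcr8 (0.23, adjusted p = 2.27e-04) were higher.

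Of 13 tested genes for other proteins that bind 3′ untranslated regions, 5 fell and 1 rose (46.2% called, against 57.0% of all tested genes). Hnrnpd, which encodes AUF1, another AU-rich element binding protein, had 261 ± 10.7 CPM with control and 118 ± 5.70 with tranilast, a log2 fold change of -1.14 (adjusted p = 5.02e-14). Of other AU-rich element binding proteins of this list, Khsrp (-0.19, adjusted p = 1.74e-04, up to 0.122 over its alternatives) and Tial1 (-0.23, adjusted p = 0.00119, up to 0.12) fell and Tia1 was not called (0.05, adjusted p = 0.421). Pum2, a Pumilio repressor, had a log2 fold change of -0.22 (adjusted p = 5.93e-06) and Ythdf2, a reader of methylated adenosine that recruits CCR4-NOT, of -0.32 (adjusted p = 8.28e-06). The neuronal relatives of HuR, Elavl2, Elavl3 and Elavl4, had too few counts to be tested.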

How the data were processed

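The authors deposited 1 table of gene values made from poly-A enriched, paired-end libraries, which gives for each gene and library an estimated count and, after scaling for transcript length and depth by the authors, an FPKM value. The aligner, counting tool and genome build are not given in the sources used here. The estimated counts, of which 92.7% to 93.9% were whole, were rounded and fitted in edgeR 4.0.16 (filterByExpr by group, TMM, quasi-likelihood test, Benjamini-Hochberg adjustment over 10770 genes, adjusted p under 0.05, no fold threshold). Groups were taken from the sample labels. All rows carry a gene identifier, and 30 without a symbol stayed in the fit. Intervals are 95% intervals of that fit. The biological coefficient of variation, as edgeR names the spread between libraries, was 5.09%, and this spread may be technical here. Exact permutation tests used log2(CPM + 0.1). The depth of 12053036 to 15618787 counts sets the precision.

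The alternatives were RLE, upper-quartile and no scaling factors, DESeq2 1.42.0, limma-voom and limma trend on log2 FPKM (limma 3.58.1, pseudocounts 1 and 0.1), other filters, an adjusted p under 0.01, the replicate number as a block and each library left out. The comparison of medians across them was added after the data were seen, as was the search for the nonamer.

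The members, gene lists and tests were chosen with earlier results of these data known. Every member is accounted for by class; values in each library were given for up to 4 called members of a class with the lowest adjusted p and for all AU-rich element binding genes, and other lists name up to 3 called genes of a class with a mean of at least 50 counts. Cnot8 and Dcp2, and the cytokine genes, Btg3, Khsrp, Tial1, Tia1 and other deadenylases named beyond this rule, were chosen after their values were seen.

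Coordinates and sequences are those of GENCODE M21 on GRCm38, to which 21973 of 22063 identifiers were matched. On simulated counts of 10770 genes for the comparison of tranilast with control, edgeR recovered 88 of 100 genes changed by 0.5 and 98 of 100 changed by 1 on the log2 scale, with 12 false calls. Only 200 genes were changed there, equally up and down, whereas 57.0% of the genes were called in the data. The simulation therefore does not show how the test behaves at such a share or for smaller changes. R 4.3.3 and Python 3.11.15 were used.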

Additional observations from a re-analysis of the deposited data

Results flagged for a closer look

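Each group of 4 libraries was searched for 1 library whose gap to its nearest neighbour took more of the group's whole range than Dixon's critical value at 95% allows. Chance flags about 1 in 20 groups. Of the 80 groups formed by the 40 members none was flagged, where the largest such share was 0.817, and of all 286 groups, which include the other decay genes, the AU-rich element transcripts and the ratios of related genes, 6 were. The 6 were all other decay genes. Tranilast replicate 3 stood above the other tranilast libraries for Paip2 (81.5 CPM against 74.6 to 75.2), for C1d (32.8 CPM against 30.4 to 30.7) and for Hnrnpd (127 CPM against 115 to 116). For Nudt16, tranilast replicate 2 was low, with 5.94 CPM against 8.52 to 9.02. Control replicate 2 was low for Smg9, with 29.0 CPM against 34.1 to 34.2, and control replicate 3 was low for Drosha, with 58.8 CPM against 61.9 to 62.5.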

How the results depend on the processing

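RLE factors, DESeq2, limma-voom, both other filters and the replicate block left the direction and call of all 40 members as reported. Other scaling did not. Members called higher numbered 6 with library size alone, 4 with upper-quartile factors and 5 with log2 FPKM plus 1 or plus 0.1, against 2, and members called lower 13 with library size alone and 14 with either FPKM setting, against 22. By class, library size alone called 1 gene of PAN and PARN and 2 of poly(A) binding and TOB/BTG, where upper-quartile factors called 3 and FPKM 2. The AU-rich element binding class had 1 call with each of these settings and with an adjusted p under 0.01, and between 1 and 2 with each library left out.

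With library size alone the log2 fold change turned to 0.037 for Cnot2, 0.064 for Cnot4, 0.057 for Cnot9, 0.094 for Cnot11, 0.090 for Dcp1a, 0.0086 for Dcp2, 0.037 for Edc4, 0.018 for Btg1, 0.078 for Exosc3 and 0.069 for Zfp36l2. With upper-quartile factors it turned to 0.015 for Cnot4, 0.0078 for Cnot9, 0.045 for Cnot11, 0.041 for Dcp1a, 0.029 for Exosc3 and 0.019 for Zfp36l2. With log2 FPKM plus 1 and plus 0.1 it turned to 0.080 and 0.082 for Cnot2, 0.058 and 0.062 for Cnot4, 0.054 and 0.055 for Cnot9, 0.099 and 0.10 for Cnot11, 0.14 and 0.15 for Dcp1a, 0.088 and 0.095 for Dcp2, 0.0093 and 0.0099 for Tob2, 0.0013 and 0.0014 for Btg1, 0.076 and 0.078 for Exosc3 and 0.067 and 0.068 for Zfp36l2. With each library left out it lay between -0.051 and 0.020 for Cnot11, -0.074 and 0.00066 for Exosc3, -0.0097 and 0.096 for Exosc5, -0.0057 and 0.059 for Exosc9 and -0.046 and 0.066 for Zfp36l1. Of the 24 called members, 15 had the same direction and call under every alternative and 9 lost their call in at least 1. The cause of these shifts was not tested.

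The FPKM ratio moved the log2 difference of Cnot6 to Cnot6l to 0.022 and of Pan2 to Pan3 to 0.15. Same-numbered libraries did not deviate together (correlations -0.06, -0.04, 0.0076 and 0.11), so the numbers are not taken as pairs, and the replicate block called 22 members lower, 2 higher and 6009 genes in all.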

Other observations

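Beyond CCR4-NOT, PAN2-PAN3 and PARN, the genome encodes further enzymes of the deadenylase families, and the 4 that were listed were all higher with tranilast. They were chosen after their values were seen, and they are also counted above with the partners of deadenylation. Noct (nocturnin), a circadian member of the family of CNOT6, had 725, 678, 661 and 689 CPM in the control libraries and 800, 767, 788 and 795 in the tranilast libraries, a log2 fold change of 0.20 (SE 0.028, adjusted p = 1.04e-05). Angel1 and Angel2, of the same family, had log2 fold changes of 0.70 (adjusted p = 8.59e-04) and 0.18 (adjusted p = 0.00732), and Toe1, a nuclear enzyme related to CNOT7, of 0.39 (adjusted p = 3.56e-04). In all 4 genes every tranilast library lay above every control library, as for 49.8% of all tested genes in either direction, and the call and its direction were the same in all 18 alternatives. Among the nuclease genes of the members, Cnot6, Cnot6l, Cnot7 and Pan2 were lower in the same libraries, Parn was higher and Cnot8 was not called. The calls of Cnot6l and Pan2 were lost in some alternatives.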
